A study of Danio rerio with 24 samples.

Results

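In 3 of 10 zebrafish rb1 brain tumors, tumors 2, 8 and 10, the genes of the chromosome that carries erbb3b and E2F1 were raised together, and these 3 tumors are described here against the other 7 (tumors 1, 3, 4, 5, 6, 7 and 9). The 3 tumors were chosen by the raised counts of genes of this chromosome, chromosome 23, in these same libraries. Every value of a gene on it is therefore a description, given without a p-value, and tests are given only for genes and levels of other chromosomes. The sets come from expression and not from the labels, which describe all 10 tumors alike.

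RNA-Seq was performed on 24 libraries from 12 RNA samples, 10 tumors from different fish and 2 control pools of 3 brains. All fish were of the WIK strain, with an age of 6.5 to 10 months in the labels. The rb1 gene had been cut by TALENs, a kind of designed nuclease, in somatic cells, so each tumor-bearing fish was a mosaic of targeted and untargeted cells. The controls were wild-type midbrain-hindbrain tissue, and by the labels each RNA gave libraries a and b, which were summed. The dissected tissue was not sorted by cell type, so a level in them reflects tumor cells and the normal cells left among them. Because these are bulk samples, fewer cells of a type and less RNA per cell cannot be told apart.

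E2F1 is a transcription factor that drives genes of S phase, and in normal cells the retinoblastoma protein encoded by rb1 binds it and holds it back. Erbb3b is a zebrafish form of ErbB3, a receptor of the neuregulin growth factors that signals by pairing with other ErbB receptors and is needed for development of glia and the neural crest. Zebrafish have 25 chromosome pairs, and the measure used here is the joint level of transcripts from each chromosome. DNA was not measured in these samples, so the number of chromosome copies was not tested.

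Sequencing depth was even, with total counts of 20.9 to 22.2 M (mega) in the 3 tumors and 18.5 to 24.95 M in the 7. Both libraries of each tumor matched closely, with a chi-square between their counts of 1.04 to 1.597 for each degree of freedom, where 1 is sampling noise. Control libraries of the same letter, 1a with 2a and 1b with 2b, differed by only 1.00 and 1.01, but libraries a and b of the same control label by 3.25 and 3.42, so the controls paired by letter and not by their label. Each control sum was made by label and so joined a library of each pair. How close the 2 control values lie therefore does not measure a spread between pools. No test below uses the controls. Their values are shown as a background level and, averaged over both, serve to class genes by how tumors and normal brain differed. The label "tumor" was borne out by gene lists, since 38 mitosis genes averaged 6.21 to 7.16 log2 CPM (counts per 1 M counts) in the 10 tumors and 1.11 and 1.14 in the controls. The targeted gene rb1 (ENSDARG00000006782) was at 25.6, 29.6 and 34.5 CPM in tumors 2, 8 and 10. In the other 7 tumors it ranged from 18.5 to 99.8 CPM with a median of 28.6, against 13.2 and 14.8 CPM in the controls. TALEN lesions need not lower the transcript, so these levels do not check the lesion.

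Of 32266 genes in the count table, 802 were placed on chromosome 23 by matching their names to the RefSeq annotation of assembly GRCz12tu, and 665 of these passed the filter on low counts, among 19848 genes tested in all. The level of a chromosome in a tumor was taken as the median, over its genes, of log2 CPM minus the gene's median over the 10 tumors, less the same median over all genes that are not on chromosome 23. On this scale chromosome 23 was at 0.31 in tumor 2, 0.27 in tumor 8 and 0.18 in tumor 10. In the other 7 tumors it lay between -0.06 and -0.03, with a median of -0.05. The lowest of the 3, tumor 10 at 0.183, and the highest of the 7, tumor 5 at -0.027, were thus separated by a wide gap. The 3 tumors averaged 0.256 ± 0.067 (SD, n = 3) and the 7 averaged -0.044 ± 0.011 (SD, n = 7), a difference of 0.300. The control sums were at -0.040 and -0.009. On other chromosomes they lay far from the tumors, such as -0.330 and -0.352 on chromosome 22 and 0.220 and 0.227 on chromosome 24. Their level near 0 on chromosome 23 therefore says little about the 3 or the 7 tumors.

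**Figure D1:**
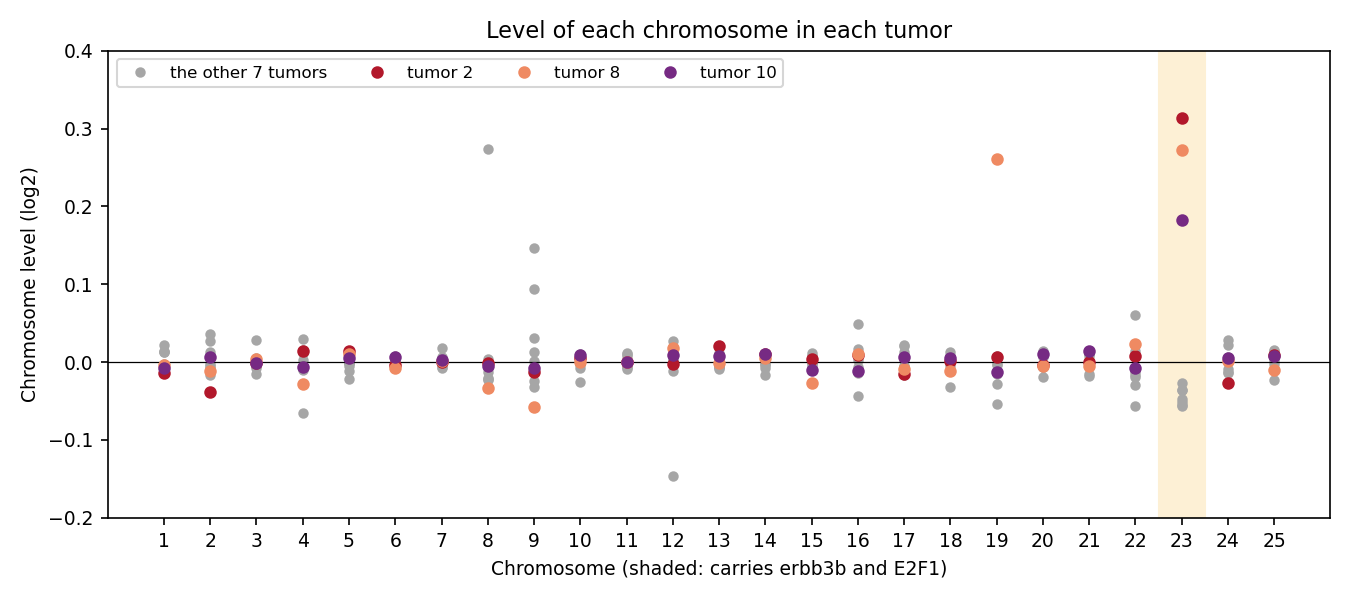
Level of each of 25 chromosomes (x axis) in each of 10 tumors, as the median log2 difference over genes (y axis). Coloured points are tumors 2, 8 and 10, grey points are the other 7 tumors, and on the shaded chromosome 23 the 3 coloured points, 0.314, 0.273 and 0.183, stand above all grey points.

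Libraries a and b of a tumor gave levels of chromosome 23 that differed by at most 0.020. Measured against the median of the 7 other tumors, the median gene of the chromosome was 1.33-fold higher in tumor 2, 1.29-fold in tumor 8 and 1.21-fold in tumor 10. In these tumors 69.6%, 70.23% and 74.3% of its genes were above that median. Of genes not on chromosome 23, on which the scale is centered, 49.9974% were above it in each of these tumors. Tumor 10 had the smallest shift but the largest share of genes above the median. Its quartiles over genes were -0.02 and 0.45 on the log2 scale, narrower than -0.15 and 0.70 in tumor 2. Given this narrower spread, the larger share in tumor 10 does not show that more genes were raised.

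The rise ran along the whole chromosome. The 665 genes were put in the order of GRCz12tu and divided into 12 blocks of 55 or 56 genes, and in 12 of 12 blocks all 3 tumors were above all 7. The mean of the 3 exceeded that of the 7 by 0.214 to 0.407 on the log2 scale, least in block 6 and most in block 12. Tumor 2 ranged from 0.17 to 0.47 over blocks, tumor 8 from 0.16 to 0.39 and tumor 10 from 0.04 to 0.25. The closest approach was block 4, where tumor 10 was at 0.044 and the highest of the 7 tumors at 0.004. On the other 24 chromosomes, cut in the same way, the 3 tumors were above all 7 in 7 of 288 blocks (2.43%), and the differences ran from -0.160 to 0.165. erbb3b lies in block 7 and E2F1 in block 11, neither of which was the highest.

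**Figure D2:**
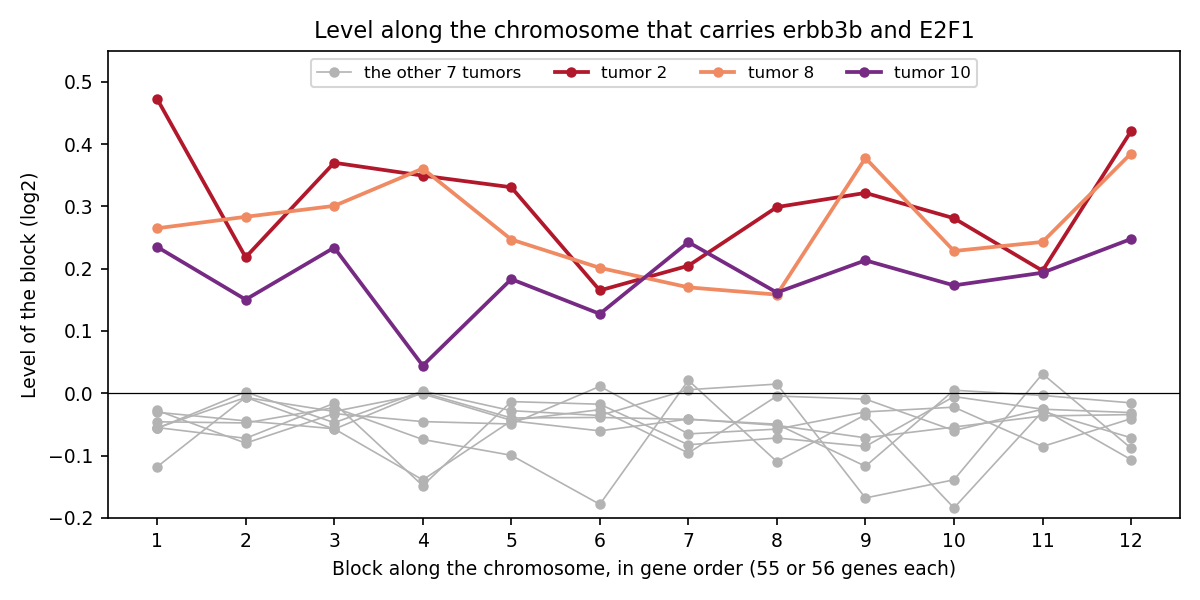
Level along chromosome 23 in 12 blocks of 55 or 56 genes in gene order (x axis), as the median log2 difference of the genes of a block (y axis), with a line for each tumor. Tumors 2, 8 and 10 (coloured) lie above the other 7 (grey) in all 12 blocks, most closely in block 4, where tumor 10 is at 0.044.

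The difference between the sets was fitted per gene with the quasi-likelihood model of edgeR and is given as the log2 fold of 3 over 7 tumors with its standard error. The median over the 665 genes was 0.32, a fold of 1.25, with quartiles of -0.06 and 0.55. Over the 19183 other genes it was -0.02 with quartiles of -0.31 and 0.14. On chromosome 23, 479 of 665 genes (72.0%) had a positive log2 fold, against 47.2% of other genes. All 3 tumors exceeded all 7 for 183 of 665 genes (27.5%), where the share over all tested genes was 1.81% and over genes not placed on the chromosome 0.923%. All 3 were below all 7 for 4 of 665 genes (0.60%), where the share over all tested genes was 0.776%, so this count was no larger than the background. These 4 were sulf2b, which encodes a heparan sulfate sulfatase, ftr57, the pluripotency factor gene sall4 and the somatostatin gene sst3.

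The size of the rise went with how strongly a gene was expressed. Among 106 genes of the chromosome that averaged 100 CPM or more over the tumors, the median log2 fold was 0.51, and 100 of them (94.3%) were positive. In the class of 10 to 100 CPM it was 0.40 over 296 genes. In the class of 1 to 10 CPM it was 0.04 over 192 genes, and under 1 CPM it was -0.05 over 71 genes. Other genes had medians of 0.08, 0.01, -0.14 and -0.21 in the same 4 classes, so the chromosome stood higher in each, by less at low levels. By exonic length the median was 0.31, 0.32 and 0.33 in the middle, shortest and longest class of chromosome 23 genes.

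**Figure D3:**
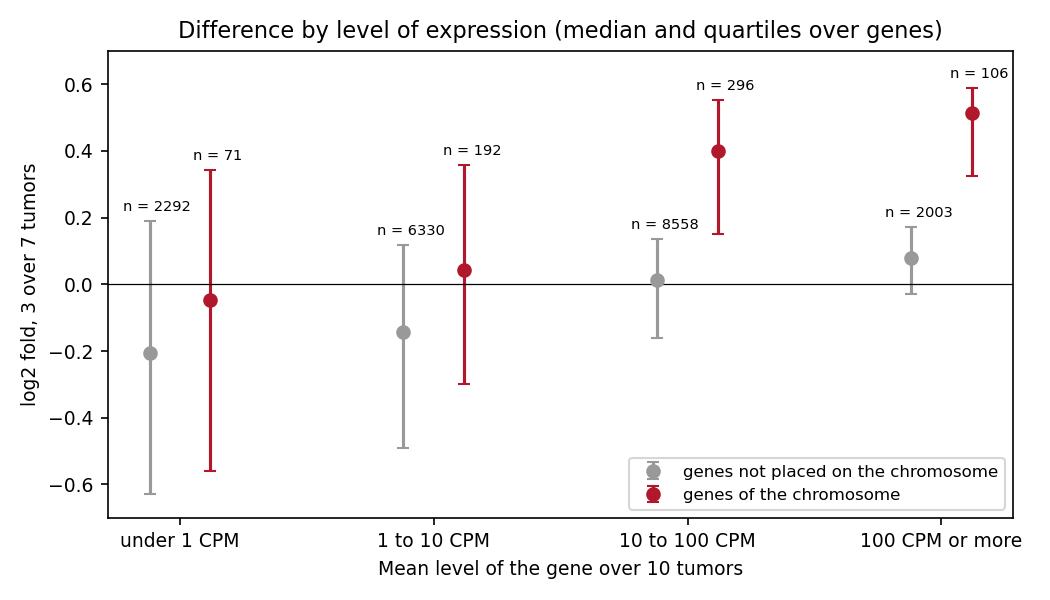
Fitted log2 fold of 3 over 7 tumors (y axis) by the mean level of a gene over 10 tumors (x axis, CPM classes), for genes of chromosome 23 (red) and all other tested genes (grey). Points are medians over genes, bars are the lower and upper quartiles, and n is the number of genes, and the red median goes from -0.05 under 1 CPM to 0.51 at 100 CPM or more.

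The rise also went with how a gene differed between tumors and normal brain. Classes formed from tumor levels are not independent of the difference between the sets. Part of the trend over classes may therefore come from the classing, on chromosome 23 and elsewhere alike. The 140 chromosome 23 genes whose tumor level was at least 2-fold over the control sums had a median log2 fold of 0.56 between the sets, against 0.11 for such genes elsewhere. The 389 genes within 2-fold had a median of 0.37, against 0.02 elsewhere. The 136 genes at least 2-fold higher in control brain had a median of -0.26, against -0.44 elsewhere. The brain-type genes of chromosome 23 thus had a negative median like such genes elsewhere, but a smaller one. By tumor their median was -0.28, -0.10 and -0.02 in tumors 2, 8 and 10, within the -0.72 to 0.36 of the 7. Such genes elsewhere were at -0.47, -0.31 and -0.06, within -0.78 to 0.38, so the sets overlapped in both. Neuron markers also had a negative median, as given further on, and their part in this was not tested.

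The erbb3b gene (ENSDARG00000036993) was at 426.3, 598 and 481 CPM in tumors 2, 8 and 10. In the 7 other tumors it ranged from 271 to 426.2 CPM with a median of 358, and the controls were at 17.8 and 16.7 CPM. The sets did not overlap, but tumor 2 was level with the highest of the 7. The log2 fold was 0.52 ± 0.15 (SE), so erbb3b moved about as far as the upper quartile of its chromosome, 0.55. That was also near 0.51, the median of chromosome 23 genes of 100 CPM or more, the class of erbb3b. Of the 5 genes on either side of it in gene order, 8 of 10 had a positive log2 fold, where the share over chromosome 23 was 72.0%. These 10 neighbours had a median of 0.31 and a range of -0.28 to 0.78. The highest of these was pa2g4b, whose human form is known as an ErbB3-binding protein.

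E2F1 (ENSDARG00000103868) was at 107 CPM in tumor 2, 221 in tumor 8 and 113 in tumor 10. In the 7 tumors it ran from 55.8 to 106 CPM with a median of 69.1, and the controls were at 0.534 and 0.458 CPM. The sets again did not overlap, with tumor 2 only just above the highest of the 7 and tumor 8 far above the rest. Its log2 fold was 0.96 ± 0.25 (SE), which fell to 0.54 when tumor 8 was left out. All 10 of its nearest neighbours had a positive log2 fold, from 0.32 to 0.87 with a median of 0.47. For 5 of 10 all 3 tumors were above all 7. Over chromosome 23 the shares were 72.0% positive and 27.5% with all 3 above all 7. Among its genes of 10 to 100 CPM, the class of most of these neighbours, they were 82.1% and 39.2%. With only 10 genes, these counts do not set the neighbours of E2F1 apart from the chromosome. The neighbours include ctnnbl1, a spliceosome-associated gene, at 0.61, and abce1, a ribosome recycling factor gene, at 0.61. With all 3 tumors in the fit, E2F1 lay above the range of these neighbours.

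Of the cell cycle genes named here, mybl2a, racgap1 and tpx2 had log2 folds above the upper quartile of chromosome 23, 0.55. prim1 was just below it, at 0.54. Mitosis genes of other chromosomes also had a positive median, as given further on. mybl2a (ENSDARG00000095241), a zebrafish form of the B-Myb factor that switches on genes of mitosis, was at 36.3, 35.9 and 27.3 CPM in tumors 2, 8 and 10 and at 18.03 to 23.6 CPM (median 20.5) in the 7. racgap1 (ENSDARG00000015460), needed for cytokinesis, was at 314, 487 and 218 CPM against 104 to 241 CPM (median 152), a log2 fold of 1.02 ± 0.27. Tumor 10 overlapped the 7 tumors here, as it did for tpx2 (ENSDARG00000078654), a spindle assembly factor gene at 502, 542 and 339 CPM against 205 to 354 CPM (median 265). prim1 (ENSDARG00000040163), which encodes the small subunit of DNA primase, was at 97.7, 62.6 and 82.4 CPM against 41.6 to 72.4 CPM (median 53.4), and here it was tumor 8 that overlapped. In the mybl2a measurement the sets were apart, with a log2 fold of 0.73 ± 0.13.

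The chromosome's 10 most abundant genes in the tumors were mostly housekeeping and chromatin genes, and 9 of them had log2 folds between 0.28 and 0.69. hmga1a (ENSDARG00000028335), which encodes a high mobility group protein that bends DNA, was at 2904, 2299 and 1861 CPM in tumors 2, 8 and 10 against 1359 to 2065 CPM (median 1699). hmgb2b (ENSDARG00000053990), another high mobility group gene, was at 1709, 2039 and 1241 CPM against 880 to 1297 CPM (median 979.98). In both, tumor 10 was within the range of the 7 tumors.

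The ribosomal protein genes RPL41, rpl10, rps21, rps12 and rps26 of the chromosome had log2 folds of 0.64, 0.58, 0.59, 0.65 and 0.56, and for rpl10 (ENSDARG00000025581) tumors 2, 8 and 10 were at 1602, 1560 and 1059 CPM against 712 to 1335 CPM (median 876). naca, a ribosome-associated chaperone gene, was at 1054, 950 and 717 CPM against 561 to 886 CPM (median 596). In these genes too tumor 10 overlapped the 7.

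The sets did not overlap for uba1, tcp1 and huwe1. uba1 (ENSDARG00000037559), the gene of the main ubiquitin-activating enzyme, was at 965, 861 and 809 CPM against 381 to 621 CPM (median 570.2), a log2 fold of 0.66 ± 0.14. tcp1 (ENSDARG00000017891), a subunit gene of the chaperonin that folds actin and tubulin, was at 798, 757 and 664 CPM against 358 to 557 CPM (median 458). huwe1 (ENSDARG00000016782), a ubiquitin ligase gene, was at 676, 689 and 575 CPM against 385 to 556 CPM (median 434).

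clstn1 and atp1b2a, both more abundant in normal brain than in tumors, moved least among the abundant genes. clstn1 (ENSDARG00000031720), which encodes the neuronal protein calsyntenin, had a log2 fold of 0.28 ± 0.16, and its controls were at 1848 and 1872 CPM against 653 to 1260 CPM in the tumors. atp1b2a (ENSDARG00000099203), a sodium pump subunit gene, was at 609, 565 and 559 CPM against 353 to 699 CPM (median 589), with a log2 fold of 0.004 ± 0.18.

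**Figure D4:**
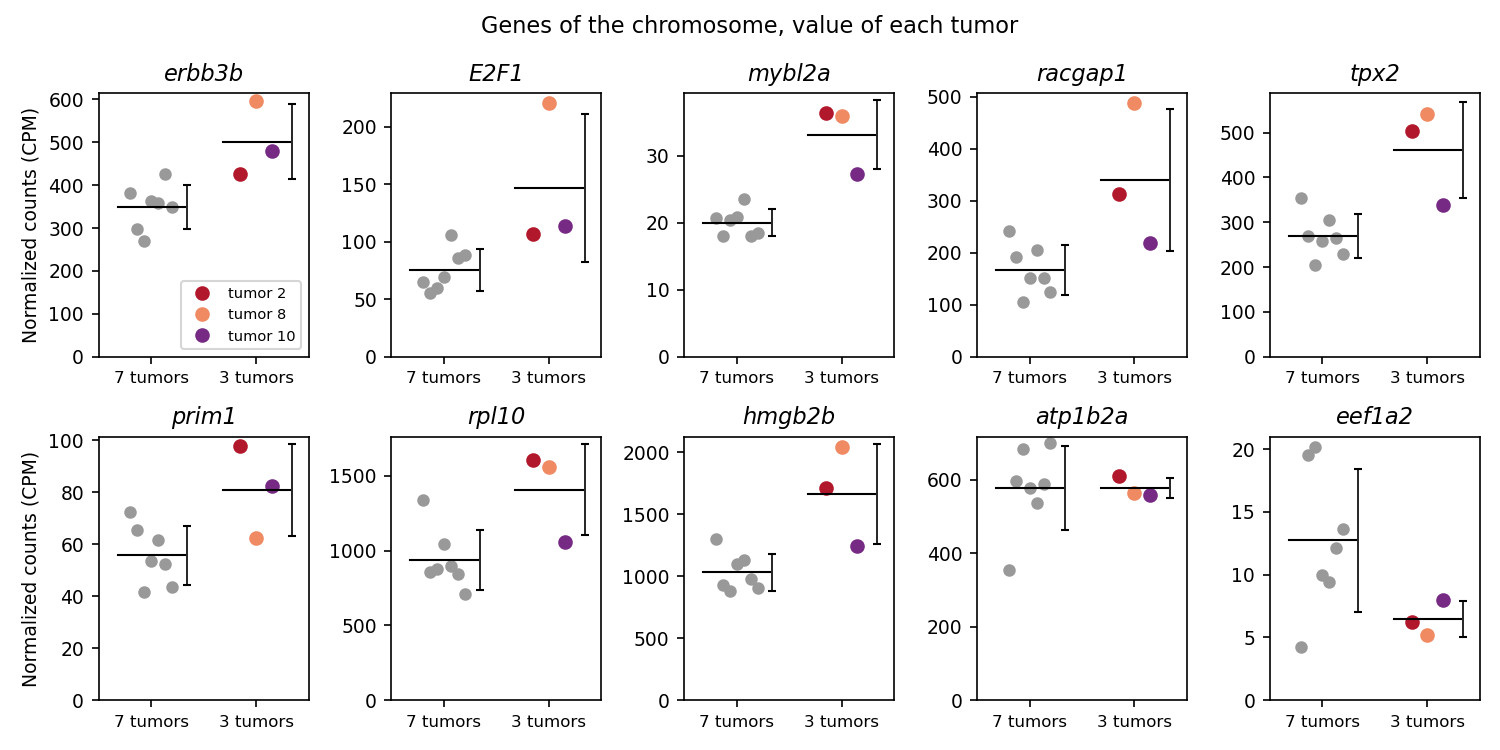
Normalized counts (CPM, y axis, from 0) of 10 genes of chromosome 23 in the 7 other tumors (grey points) and in tumors 2, 8 and 10 (coloured points). Horizontal lines are means and bars are SDs over 7 and 3 tumors, and the sets are apart for erbb3b, E2F1 and mybl2a, while atp1b2a and eef1a2 are not raised.

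On chromosome 23 the 10 largest log2 folds of genes averaging 10 CPM or more ran from 0.98 to 1.48. The largest was zgc:193690 (ENSDARG00000044325), at 47.4, 57.2 and 35.7 CPM in tumors 2, 8 and 10 against 7.53 to 27.6 CPM (median 14.3). si:ch211-197l9.2 followed with 1.33, at 112, 129 and 57.0 CPM against 19.6 to 48.9 CPM. eno3 (ENSDARG00000039007), the enolase gene of muscle, was at 127, 109 and 123 CPM against 30.9 to 96.1 CPM (median 62.9). The sets were apart for these 3 genes and for zgc:153012, CABZ01069339.1 and rbm38, the last an RNA-binding protein gene.

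For the other 4 the sets overlapped. rbms2b, an RNA-binding protein gene, rested on tumor 8 with 81.7 CPM, where tumors 2 and 10 were at 18.6 and 32.2 CPM. si:dkey-157g16.6 rested on tumor 2 with 94.6 CPM against 34.5 and 26.9 CPM in tumors 8 and 10. adcy6b, an adenylyl cyclase gene, was at 57.4, 33.3 and 33.4 CPM against 10.1 to 34.4 CPM, and racgap1 is given above.

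The 5 lowest log2 folds at this level of expression were those of krt5, CABZ01066035.1, eef1a2, plxna2 and scube3. krt5 (ENSDARG00000058371), a keratin gene, had -2.72 ± 1.48, with a single tumor of the 7 at 90.9 CPM, while the median of the 7 was 3.34 and tumors 2, 8 and 10 were at 2.18, 1.65 and 3.39 CPM. eef1a2 (ENSDARG00000006838), an elongation factor gene of neurons and muscle, was at 6.21, 5.18 and 8.01 CPM against 4.22 to 20.2 CPM (median 12.2), with 89.9 and 91.2 CPM in the controls. plxna2, an axon guidance receptor gene, had a log2 fold of -0.92 ± 0.31 and was at 52.95 and 53.1 CPM in the controls. In all 5 the sets overlapped.

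Zebrafish keep many genes as a and b copies on different chromosomes, so some of the genes named above can be set beside their copy. erbb3a, the copy of erbb3b, was at 382, 328 and 265 CPM against 235 to 718 CPM (median 391), a log2 fold of -0.36 with an adjusted p of 0.740 in edgeR's test. mybl2b, the copy of mybl2a, was at 163, 170 and 159 CPM against 138 to 187 CPM (median 172), a log2 fold of -0.01 with an adjusted p of 0.979 in edgeR. hmga1b had -0.71 beside 0.49 for hmga1a, and hmgb2a had 0.06 beside 0.69 for hmgb2b. The adjusted p values of hmga1b and hmgb2a were 0.673 and 0.890 in edgeR. These pairs are a choice, and other pairs moved alike, such as sulf2b at -0.52 with sulf2a at -0.40 and frmd4bb at 0.62 with frmd4ba at 0.63. If only uniquely mapped reads were counted, which was assumed for the tumor libraries, the values of near-identical copies are uncertain to that extent.

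The remaining E2F and ErbB genes lie on other chromosomes and could be tested. None passed an adjusted p of 0.05 in edgeR. e2f3 (ENSDARG00000070463), an activator like E2F1, was at 115, 164 and 156 CPM against 77.7 to 124 CPM (median 108), with a log2 fold of 0.46 ± 0.16, an unadjusted p of 0.0144 and an adjusted p of 0.535 in edgeR. E2F2, also an activator, was at 48.3, 40.5 and 83.9 CPM against 35.6 to 54.5 CPM, with an adjusted p of 0.656 in edgeR. e2f4 (ENSDARG00000101578), of the repressor type, was at 72.1, 73.1 and 116 CPM against 50.2 to 72.7 CPM (median 55.3). Its log2 fold was 0.62 ± 0.16, with an unadjusted p of 0.00313 and an adjusted p of 0.309 in edgeR. For e2f4 tumor 2 was within the range of the 7, and tumor 10 was far above the rest. e2f7 and e2f8, the atypical repressors, had log2 folds of -0.25 and 0.42 with adjusted p values of 0.696 and 0.665 in edgeR. Among the partners of ErbB3, egfra had 0.54, erbb2 -0.33, erbb4b -0.03 and erbb4a -0.67, with edgeR adjusted p values of 0.718, 0.839, 0.986 and 0.678. A further row named ERBB4 (ENSDARG00000090408), at 1.16, 0.848 and 1.00 CPM against 1.154 to 2.384 CPM, had -0.84, with an unadjusted p of 0.0179 and an adjusted p of 0.555 in edgeR.

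Across the 19183 genes not placed on chromosome 23, edgeR called 0 higher (0%) and 0 lower (0%) at an adjusted p of 0.05, with a smallest adjusted p of 0.141. In each tool the adjustment ran over all its genes, those of chromosome 23 included. The tumors were chosen by those genes, so their small p-values can lower the adjusted p of other genes. Calls close to the limit depend in part on this, and its size was not tested. At an unadjusted p under 0.05, 466 were higher (2.43%) and 763 lower (3.98%). DESeq2 called 40 higher (0.213%) and 60 lower (0.32%) of 18764 genes with an adjusted p. In 29 and 31 of these the sets did not overlap, where the shares over all genes not placed on the chromosome were 0.923% and 0.782%. A call favours genes whose sets are apart, so these counts add no support to the calls. In 4 of the 40 higher calls a single tumor held over 80% of the summed CPM of the 3 tumors. limma voom with quality weights called 3 higher (0.0156%) and 0 lower, each of the 3 just under the limit at an adjusted p of 0.049. These 3 were col11a2, a collagen gene, SCML2, a Polycomb gene, and CABZ01113771.1, with log2 folds of 1.39, 0.66 and 0.89 in edgeR, and all 3 tumors were above all 7 for each. SCML2, for example, was at 26.3, 24.2 and 24.2 CPM against 14.3 to 17.2 CPM. Genes with no chromosome assigned may lie on chromosome 23. They include 17 of the 100 DESeq2 calls, CABZ01113771.1 being among the 17, where 88.9% of all tested genes were placed. In simulated data of this size, edgeR recovered 17 of 50 genes changed 2-fold and 2 of 50 changed 1.5-fold, so a change of the size seen on chromosome 23 would seldom be called for a single gene.

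The levels of the other 24 chromosomes were compared between the sets with a two-sided exact permutation test over the 120 ways to pick 3 of 10 tumors, whose smallest p is 0.0167. No chromosome passed after adjustment over 24 (smallest adjusted p 0.40). A chromosome alone at the smallest p of 0.0167 has an adjusted p of 0.40. The adjusted test therefore could not have called a single chromosome, and its outcome does not show that none differed. Chromosome 5 was 0.016 higher in the 3 tumors without overlap (exact permutation p = 0.0167), and chromosome 14 was 0.011 higher (exact permutation p = 0.0333). Both shifts were small beside the 0.300 of chromosome 23. The difference was widest on chromosome 19, 0.10, which rested on tumor 8 (exact permutation p = 0.133).

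Tumor 8 had chromosome 19 at 0.261, nearly as high as its chromosome 23 at 0.273. In 12 of 12 blocks of chromosome 19 it was above all other tumors, with block levels from 0.197 to 0.330. Tumors 2 and 10 were at 0.007 and -0.012 there. Outside chromosome 23, tumor 2 ranged from -0.038 to 0.021 over chromosomes and tumor 10 from -0.012 to 0.014, so no other chromosome stood out in these 2 tumors. e2f3 and col11a2, given above, are on chromosome 19, where 8.06% of genes were higher at an unadjusted p under 0.05, against 2.43% over all genes not on chromosome 23. These 2 genes were not high in tumor 8 alone. col11a2 was at 7.62, 8.05 and 5.82 CPM in tumors 2, 8 and 10 against 2.01 to 3.38 CPM. e2f3 was at 156 CPM in tumor 10 against at most 124 CPM in the 7.

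Gene lists of pathways and cell types were compared without the genes of chromosome 23, and edgeR called 0 genes in any of 21 lists at an adjusted p of 0.05. In the mitosis list 38 of 38 genes had a positive log2 fold with a median of 0.31, against -0.02 over all genes not on the chromosome, and 4 were higher at an unadjusted p under 0.05, where that share was 2.43%. The list averaged 7.08 and 7.16 log2 CPM in tumors 2 and 8 and 6.61 in tumor 10, where the 7 tumors lay between 6.21 and 7.13. Tumors 2 and 8 were thus near the top and tumor 10 near the middle of the 7 tumors. Among S phase genes and E2F targets 48 of 61 were positive, with a median of 0.08. Their list levels were 6.61, 6.48 and 6.40 log2 CPM in tumors 2, 8 and 10 against 6.12 to 6.60 in the 7. The list was far lower in the controls. Genes off chromosome 23 that were at least 2-fold higher in tumors than in controls had a median of 0.11, with 67.3% positive. The median of the S phase list was thus no higher than that of such genes. The RB pathway list had a median of 0.04, which turned to -0.02 under library size scaling. Ribosomal protein genes elsewhere had a median of 0.13 over 83 genes, where the 5 on chromosome 23 had 0.59.

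Neuron genes were lower, with 2 of 36 positive and a median of -0.70, but none was called by edgeR, and 7 were lower at an unadjusted p under 0.05, where the share over all genes not on chromosome 23 was 3.98%. Their list level was 5.12, 5.30 and 5.64 log2 CPM in tumors 2, 8 and 10 against 4.72 to 6.35 (median 5.98) in the 7, so the sets overlapped through a tumor of the 7 that was lower still. Their summed level was 3433 to 4334 CPM against 2726 to 6680 CPM. Of the neuron list, camk2a, a kinase gene of synapses, was at 9.17, 17.4 and 8.68 CPM against 11.4 to 38.7 CPM, with an adjusted p of 0.289 in edgeR and 0.0132 in DESeq2. Granule and Purkinje neuron genes of the cerebellum had 0 of 17 positive and a median of -0.64. Their list level was 3.49, 3.31 and 4.13 log2 CPM in tumors 2, 8 and 10 against 2.50 to 5.11 in the 7, so the sets overlapped. Off chromosome 23, genes at least 2-fold higher in control brain already had only 9.21% positive and a median of -0.44. When the level of the neuron list was put in the model, the median log2 fold of chromosome 23 was 0.36.

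Interferon response genes had 6 of 36 positive and a median of -0.63, with 15 lower at an unadjusted p under 0.05, where the share over all genes not on chromosome 23 was 3.98%, and 0 called by edgeR. Their list level was 3.52, 3.45 and 3.10 log2 CPM in tumors 2, 8 and 10 against 3.13 to 4.91 (median 4.40) in the 7. DESeq2 called 4 of them lower, stat1b, dhx58, ifit8 and rsad2, where its share of lower calls was 0.32%. stat1b, a signal transducer of interferon, was at 11.6, 9.98 and 11.4 CPM against 11.5 to 135 CPM (median 45.5). The 3 tumors were low for it, but so were tumors 6 and 7 of the 7, at 11.5 and 13.6 CPM. The list levels of tumors 6 and 7, 3.13 and 3.53 log2 CPM, were also near those of the 3, so low levels were not particular to the 3 tumors. T and NK cell genes had a median of -0.74 with list levels of 0.49, 1.12 and -0.13 against -0.35 to 2.30 log2 CPM.

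The precursor genes of oligodendrocytes had 6 of 18 positive and a median of -0.25, and pdgfra, the growth factor receptor of these precursors, was at 2.57, 2.26 and 3.20 CPM against 3.26 to 10.3 CPM. The sets were apart for pdgfra, with an adjusted p of 0.317 in edgeR and 0.0267 in DESeq2. sox10 (ENSDARG00000077467), a transcription factor gene of the oligodendrocyte lineage and far more abundant, went the other way at 1359, 1222 and 1238 CPM against 703 to 1222 CPM (median 1012), with a log2 fold of 0.39 ± 0.15 and an adjusted p of 0.587 in edgeR. The list level was 5.17, 5.12 and 4.99 against 5.17 to 5.51 log2 CPM, while the summed level was 4594 to 5491 CPM against 3661 to 5322 CPM. The genes of mature oligodendrocytes had a median of 0.15 and levels of 8.27, 7.60 and 8.20 against 7.65 to 8.12 log2 CPM, with no common direction in the 3 tumors. Radial glia genes had 1 of 15 positive and a median of -0.31, with overlapping list levels of 5.63, 6.15 and 6.25 against 5.94 to 6.77 log2 CPM.

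Photoreceptor and erythrocyte genes had medians of 1.77 over 8 genes and 1.04 over 12 genes, and both rested on tumor 10. The photoreceptor list was at -0.83, -0.40 and 2.39 log2 CPM in tumors 2, 8 and 10 against -1.01 to -0.38 in the 7, and its summed level was 54.1 CPM in tumor 10. The erythrocyte list was at 2.23, 3.36 and 5.17 log2 CPM against 1.88 to 3.60. cdkn1a (ENSDARG00000076554), a cell cycle inhibitor gene, was at 11.1, 35.8 and 351 CPM against 7.45 to 17.2 CPM (median 15.1). Tumor 10 was far above the rest, tumor 8 moderately above and tumor 2 within the range of the 7, and the adjusted p was 0.183 in edgeR.

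**Figure D5:**
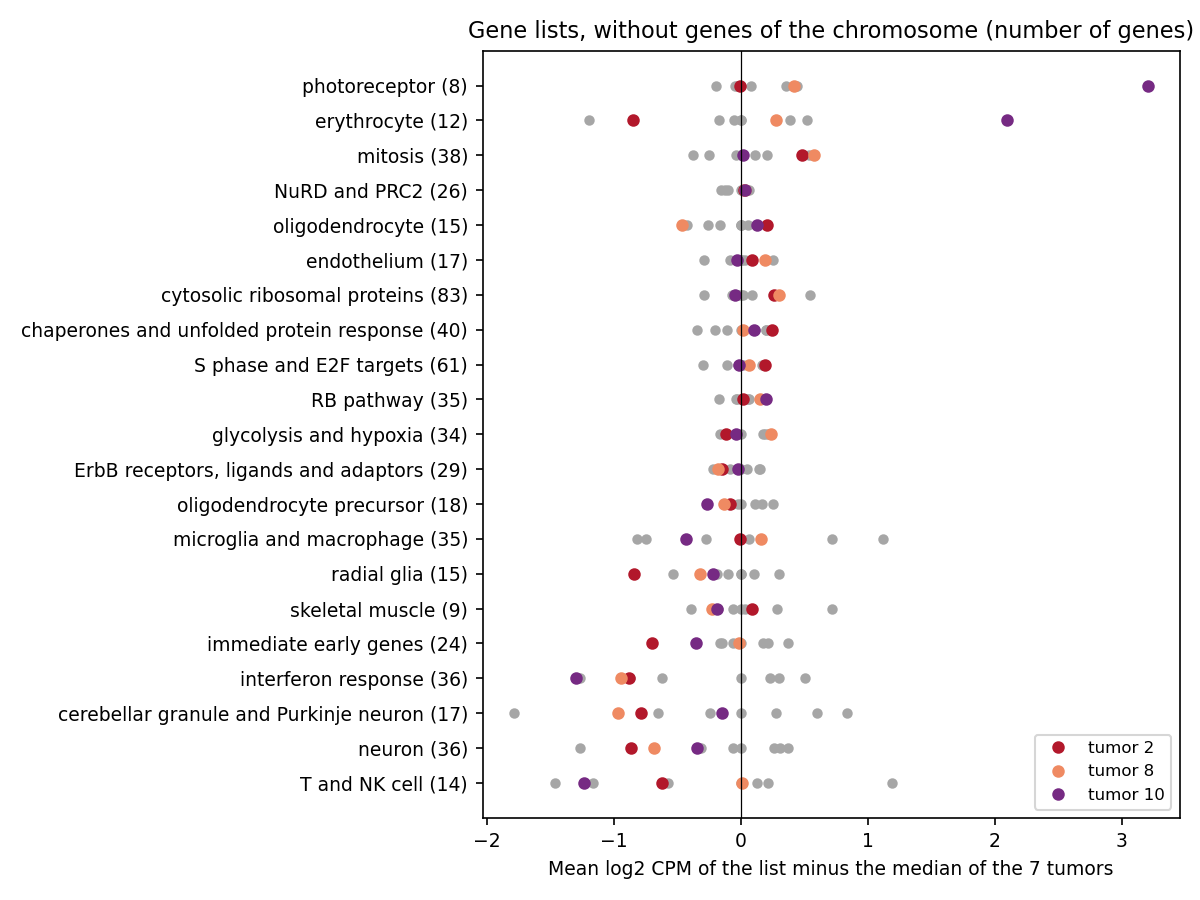
Mean log2 CPM of each of 21 gene lists in each tumor, minus the median of the 7 other tumors (x axis), with lists in order of their median log2 fold (y axis, number of genes in brackets, genes of chromosome 23 left out). Coloured points are tumors 2, 8 and 10 and grey points the other 7, and the coloured points overlap the grey ones in all 21 lists.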

How the data were processed

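The tumor count table deposited by the authors gives raw read counts, whole numbers, for each Ensembl gene. Per the submitters' notes, reads were aligned to GRCz10 with GSNAP and counted with HTSeq. Uniquely mapped reads were counted for larval libraries of the study, which was assumed here too, and use of strand is not given in the sources used here. The FPKM values, computed by the authors from counts and exonic length, served only for alternatives. A deposited table of the authors' tumor and control comparison (fold changes and p-values) was not used. Library totals were 8.79 to 12.8 M, and a floor of 3 counts is 0.120 to 0.162 CPM per tumor, for counting error only, as reads carry no molecular identifiers.

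Libraries a and b were summed. Genes were placed on chromosomes by name from RefSeq GRCz12tu, which differs from the build of the files, so no positions are given, and 88.9% of tested genes were placed. Symbols shared by several rows were handled by Ensembl identifier. The 3 against 7 comparison used edgeR 4.0.16 in R 4.3.3 (TMM scaling, filterByExpr, quasi-likelihood test, Benjamini-Hochberg adjustment over all 19848 genes, adjusted p of at most 0.05) and was tested on simulated data. p-values measure the spread between these tumors, each from a different fish, and the sets were formed from the same libraries. Levels per tumor used log2 CPM with a prior count of 2. Alternatives were DESeq2 1.42.0, limma 3.58.1, other scalings and filters, FPKM with pseudocounts of 1 and 0.1, the neuron list as covariate, library a or b alone, and leaving out each tumor. Members and lists were chosen with earlier results of these data known. Named genes were rb1 and the E2F and ErbB genes, the 10 most abundant and the 10 largest and 5 lowest differences on chromosome 23 at a mean of at least 10 CPM, and called genes elsewhere. Others were named after their values were seen, and a few genes and a list are not reported here.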

Additional observations from a re-analysis of the deposited data

Results flagged for a closer look

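Of 56 values per tumor, 24 chromosome levels, 21 list levels and 11 genes, 11 had a tumor that stood apart by Dixon's 95% limit. There the gap to the nearest of the others took up more of the range of the 10 tumors than the limit allows. Chance alone gives about 1 in 20 for independent values of normal spread. The values here share tumors, and lists and some genes were chosen with earlier results known, so 11 of 56 cannot be set against that rate. Tumor 10 stood apart for the photoreceptor list at 2.39 log2 CPM (next -0.38), the erythrocyte list at 5.17 (next 3.60), cdkn1a at 351 CPM (next 35.8), e2f4 at 116 CPM (next 73.1) and E2F2 at 83.9 CPM (next 54.5). Tumor 8 stood apart for chromosome 19 at 0.261 (next 0.008). Among the other 7 tumors, tumor 6 stood apart for chromosome 8 at 0.274 (next 0.004), tumor 5 for chromosome 12 at -0.147 (next -0.012) and chromosome 3 at 0.029 (next 0.006), and tumor 9 for chromosome 10 at -0.026 (next -0.008) and erbb3a at 718 CPM (next 463).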

How the results depend on the processing

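Tumors of the set of 3 stayed above all those of the set of 7 in the level of chromosome 23 under 18 of 18 alternatives. In 10 of the 18 a single tumor was left out of its set. As the 3 tumors were chosen by these same counts, this order is a description of the processing and no test of the rise. The difference of 0.300 became 0.384 with genes of at least 10 CPM only and 0.219 on log2(FPKM + 1), which compresses low genes, and 0.247 to 0.308 when each tumor was left out. The median log2 fold over chromosome 23 genes was 0.257 to 0.361 under other scalings, tools, libraries and the covariate, and 0.301 to 0.350 without each tumor. The restriction to symbols that occur once, added after seeing the data, gave 0.303 for the level and 0.325 for the median. Without each tumor, erbb3b ran from 0.38 to 0.64 and E2F1 from 0.54 to 1.16.

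Off the chromosome the count of 0 called genes became 100 with DESeq2 and 3 with limma voom, and was 0 in 13 other settings. It was 0 to 1 without each tumor, the 1 being med25, a Mediator subunit gene on chromosome 3, when tumor 9 was left out. In the lists DESeq2 called 8 genes, camk2a, stat1b, dhx58, ifit8, rsad2, pdgfra, cdkn1a and pde6h. Without each tumor that count was 0 to 0 with edgeR. The count of other chromosomes at an adjusted p of 0.05 was 0 in 6 settings and 0 to 0 without each tumor. A chromosome alone at the smallest p of the permutation test does not reach 0.05 after adjustment. That smallest p is larger still with a tumor left out, so these counts of 0 do not show that the result is stable. The count became 8, with 4 higher and 4 lower by at most 0.055, when the 7 tumors were their own reference. By construction this reference sets most of their levels to 0.

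No paired analysis was possible because the groups compared are tumors of a single labelled group, whose numbers only name the fish. With 3 tumors in the smaller set a change of 1.5-fold in a single gene was seldom called in simulated data (2 of 50).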

Other observations

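Among the 7 other tumors, 3 had a chromosome other than chromosome 23 with a level beyond 0.1 in either direction. In tumor 6 chromosome 8 was at 0.274, and in 12 of 12 blocks it was beyond all other tumors, with block levels from 0.126 to 0.398. In tumor 1 chromosome 9 was at 0.146, with 8 of 12 blocks beyond all other tumors and block levels from -0.136 to 0.434. In tumor 5 chromosome 12 was at -0.147, with 6 of 12 blocks beyond all other tumors and block levels from -0.579 to 0.054. In tumors 1 and 5 the shift thus did not run along the whole chromosome. Tumors 1, 5 and 6 are in the set of 7, and 8.30% of chromosome 9 genes were lower in tumors 2, 8 and 10 at an unadjusted p under 0.05, against 3.98% over all genes not on chromosome 23. The other 236 of 240 levels of chromosomes other than chromosome 23 lay between -0.065 and 0.093.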
